A study of Homo sapiens with 12 samples.

Results

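ABCG2 and 8 other ATP-binding cassette (ABC) transporters, namely ABCB1, ABCC1, ABCC2, ABCC3, ABCC4, ABCC5, ABCA1 and ABCA3, were followed in human cells without mitochondrial DNA (mtDNA). The members were all probe sets whose listed gene was 1 of these 9, which gave 13 of the 22283 probe sets of the Affymetrix GeneChip that was used. These 9 genes stand among 11963 named on the array. A probe set combines short oligonucleotides that match the 3′ region of an RNA. ABCG2 had been chosen by its lower signal in the ρ° cells of both lines on these same arrays, and the other 8 genes were added as its relatives with the results of these arrays known. The changes of the members between ρ° and ρ+ cells are therefore given as a description, and their counts past a threshold are set beside the share of all probe sets without anything being read from them. A further probe set, listed with ABCB4 and ABCB1 together, was assigned to neither.

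The 4 groups, with 3 arrays each, were ρ° and ρ+ cells of the lung adenocarcinoma line A549 and of 143BTK−, which was derived from an osteosarcoma and has no thymidine kinase. The ρ° cells had been exposed to 50 ng/ml ethidium bromide for 3 weeks and were kept as a pool without picking clones, and the ρ+ cells were the parental lines. All groups shared a high-glucose medium with 10% serum, 1 mM pyruvate and 50 µg/ml uridine. The loss of mtDNA and the earlier exposure to ethidium bromide cannot be told apart in this design. The deposited intensities were signals that the authors had quantile-normalized within each line, so a level can be compared neither between the lines nor between probe sets.

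ABC transporters are membrane pumps that spend ATP to move substances across a membrane. ABCG2 (breast cancer resistance protein) and ABCB1 (P-glycoprotein) export many drugs, and ABCG2 is also known for exporting urate and porphyrins. The ABCC members are multidrug resistance proteins that export organic anions, among them conjugates with glutathione and glucuronic acid. ABCA1 hands cellular cholesterol and phospholipid to apolipoprotein A-I, and ABCA3 loads phospholipid into the lamellar bodies of the alveolar type II cells of the lung.

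The upstream sequences of ABCG2, ABCC2 and ABCA1 are shown because ABCG2 was chosen for its lower signals in both kinds of ρ° cells and because ABCC2 and ABCA1 had higher signals in A549 ρ° cells. They are RefSeq sequences of the assembly GRCh38.p14, cover the 250 bases before an annotated gene start, and run 5′ to 3′ on the strand of the gene. Capitals mark matches, on either strand, to the GC box GGGCGG, the core of the xenobiotic response element GCGTG, the core of the hypoxia response element ACGTG, or the antioxidant response element TGACNNNGC. The windows are chr4:88158860-88159109 (minus strand) for ABCG2, chr10:99782390-99782639 (plus strand) for ABCC2 and chr9:104928156-104928405 (minus strand) for ABCA1.
ABCG2: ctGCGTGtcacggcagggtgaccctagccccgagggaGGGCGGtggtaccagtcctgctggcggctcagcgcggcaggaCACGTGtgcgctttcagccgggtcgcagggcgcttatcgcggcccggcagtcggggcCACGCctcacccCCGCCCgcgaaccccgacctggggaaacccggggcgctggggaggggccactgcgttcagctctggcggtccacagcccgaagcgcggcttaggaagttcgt
ABCC2: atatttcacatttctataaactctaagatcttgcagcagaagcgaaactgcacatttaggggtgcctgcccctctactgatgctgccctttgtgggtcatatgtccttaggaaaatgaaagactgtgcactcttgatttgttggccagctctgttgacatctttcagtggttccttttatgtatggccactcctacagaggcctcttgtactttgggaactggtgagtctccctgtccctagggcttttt
ABCA1: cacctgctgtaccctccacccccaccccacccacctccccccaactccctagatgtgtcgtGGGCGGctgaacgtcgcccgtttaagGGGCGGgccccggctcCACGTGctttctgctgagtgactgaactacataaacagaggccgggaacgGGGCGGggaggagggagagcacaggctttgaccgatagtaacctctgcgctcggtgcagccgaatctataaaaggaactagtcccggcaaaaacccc
The ABCG2 window held the GC box 2 times, GCGTG 2 times and ACGTG 2 times, the last as the overlapping strands of CACGTG, and TGACNNNGC 0 times. The ABCA1 window held 3 GC boxes and the same CACGTG, and the ABCC2 window held 0 matches. Of 35116 RefSeq promoter windows of this length, 42.6% held a GC box, 32.2% GCGTG, 18.5% ACGTG and 10.9% TGACNNNGC. ABCG2 has 5 annotated windows, of which 2 held a GC box, 3 held GCGTG, 2 held ACGTG and 0 held TGACNNNGC. The window shown is 1 of the 2 with a GC box. These 2 windows overlap and hold the same matches, so they are not separate occurrences. Some of the other windows held no match at all. Among the members not shown, the windows of ABCC4 and ABCA3 (1 each) held TGACNNNGC. An entry was found for 7 of the 9 members. A match of letters is a description and not a bound site.

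Probe sets with low signals were left out of the comparisons. The lowest mean signal kept (geometric mean of the 6 arrays) was 19.1 in A549 and 12.6 in 143BTK−. Of the 13 member probe sets, 11 (8 genes) were kept in A549, 8 (7 genes) in 143BTK− and 7 in both. Where a group averaged below the limit, signals are given without a fold or log2 change. Replicate arrays correlated with a Pearson's r of 0.899 to 0.964 across probe sets, and their median absolute log2 difference was 0.27 to 0.49. All changes are differences of log2 signals, ρ° minus ρ+, with their standard error (SE) from limma.

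ABCG2 had the lower signal in ρ° cells of both lines, and it was the member that had been selected on this difference. In A549 its probe set (209735_at) had signals of 50.4, 66.7 and 108.4 on the ρ° arrays A, B and C, against 225.3, 231.6 and 230.3 on the ρ+ arrays. The ρ° arrays spread by more than the ρ+ arrays, and the highest ρ° value stayed below every ρ+ value. The ρ° cells averaged 75.2 ± 29.9, against 229 ± 3.33 for ρ+ cells (SD of 3 arrays), a log2 change of −1.68 (SE 0.28), or 3.21-fold lower. In 143BTK− the signals were 20.2, 29.5 and 24.6 on the ρ° arrays and 61.4, 61.2 and 71.1 on the ρ+ arrays. Here too the groups did not overlap, and the ρ° cells averaged 24.8 ± 4.65, against 64.6 ± 5.66 for ρ+ cells (SD of 3 arrays). The log2 change was −1.40 (SE 0.28), or 2.63-fold lower. In these RNA extracts of whole cultures, fewer cells that express a gene and less RNA per cell cannot be told apart. The other probe sets on chromosome 4, where ABCG2 lies, had a median log2 change of 0.09 in A549 (379 probe sets) and −0.23 in 143BTK− (413 probe sets), and the part of chromosome copy number in the ABCG2 change was not tested. ABCG2 is read by 1 probe set on this array, so no other probe set could be set beside it. Over 12 alternatives in A549 its log2 change lay between −1.98 and −1.43, and over 11 in 143BTK− between −1.53 and −0.99.

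ABCB1, the other classical drug pump, was near the lower end of the signals. Its probe set (209993_at) had signals of 3.5, 5.4 and 2.2 on the A549 ρ° arrays, against 20.6, 12.7 and 24 on the ρ+ arrays. Each ρ° value lay below each ρ+ value, but the probe set was not kept in A549. In 143BTK− the signals were 14, 9.2 and 14.5 on the ρ° arrays and 23.8, 19.5 and 15.7 on the ρ+ arrays. The groups did not overlap there either. The probe set was kept in 143BTK−, but its ρ° mean lay below the limit.

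**Figure D1:**
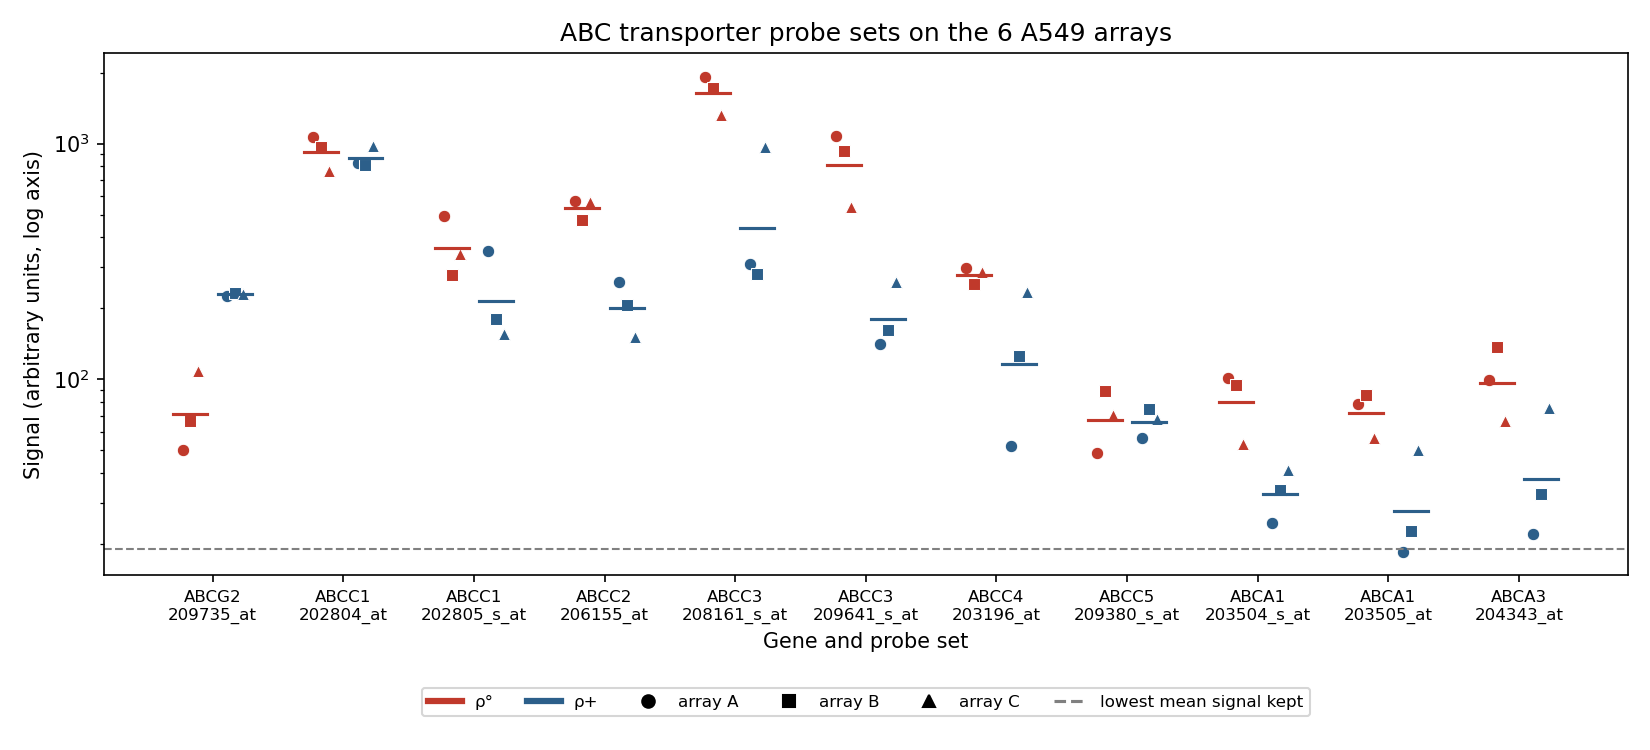
Signals of the 11 member probe sets kept in A549 (vertical axis, log scale, arbitrary units) on the 3 ρ° arrays (red) and the 3 ρ+ arrays (blue), with horizontal bars at the geometric means and the dashed line at the lowest mean signal kept, 19.1. The ρ° arrays of ABCG2 lie below all its ρ+ arrays, and those of ABCC2, ABCC3, ABCC4 and ABCA1 lie above all of theirs.

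ABCC3, an exporter of glucuronides and bile salts, had the largest log2 change among the member probe sets kept in A549. Probe set 209641_s_at had signals of 1079.4, 927.3 and 537.8 on the A549 ρ° arrays, against 140.6, 161.5 and 257.5 on the ρ+ arrays. The lowest ρ° array was more than the highest ρ+ array, and the log2 change was 2.17 (SE 0.30). Probe set 208161_s_at had 1919.9, 1714.5 and 1317.7 on the ρ° arrays, against 309.2, 278.5 and 971.5 on the ρ+ arrays. The groups were again apart, with the ρ+ C array well above the other ρ+ arrays, and the log2 change was 1.90 (SE 0.40), or 3.73-fold higher. In 143BTK− neither probe set was kept, with signals of 1.4 to 8.2 on the ρ° arrays and 1.9 to 2.6 on the ρ+ arrays.

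ABCC2, which exports conjugated bilirubin into bile in the liver, was also higher in A549 ρ° cells. Probe set 206155_at had signals of 568.4, 476 and 565.6 on the ρ° arrays, against 258, 205.8 and 150.8 on the ρ+ arrays. The ρ° cells averaged 537 ± 52.6, against 205 ± 53.6 for ρ+ cells (SD of 3 arrays), without overlap. The log2 change was 1.42 (SE 0.22), or 2.67-fold higher, and in A549 this was the member besides ABCC1 (202804_at) with the smallest SE. In 143BTK− it was not kept, with 1.9 to 13.5 on the ρ° arrays and 0.8 to 7.7 on the ρ+ arrays.

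ABCC4, an exporter of cyclic nucleotides and prostaglandins, had higher signals on every ρ° array than on any ρ+ array of the same line. In A549 probe set 203196_at had 296.4, 254.8 and 284.6 on the ρ° arrays, against 52.4, 126.1 and 235.3 on the ρ+ arrays. The ρ+ arrays were far from each other, and the log2 change of 1.26 had an SE of 0.43 (2.40-fold higher). It was 0.69 without the ρ+ A array and 1.77 without the ρ+ C array, where it passed the adjusted threshold. In 143BTK− the signals were 169.5, 172.6 and 188.4 on the ρ° arrays and 112.2, 103.6 and 88.6 on the ρ+ arrays. The replicates were closer together there, and the log2 change was 0.81 (SE 0.23), or 1.75-fold higher. The other probe sets on chromosome 13, where ABCC4 lies, had a median log2 change of 0.10 in A549 and 0.29 in 143BTK−, and the part of chromosome copy number was not tested.

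ABCC1 and ABCC5 showed no separation between ρ° and ρ+ cells. ABCC1, an exporter of glutathione conjugates, has 2 probe sets. In A549, 202804_at had 1064.2, 966.8 and 766.5 on the ρ° arrays, against 823.3, 812.6 and 977.4 on the ρ+ arrays (log2 change 0.09, SE 0.18). The other, 202805_s_at, had 492.4, 277.8 and 340.4 on the ρ° arrays, against 351.3, 179.6 and 155.6 on the ρ+ arrays (0.75, SE 0.32). Probe set 202805_s_at passed the adjusted threshold when the A549 ρ+ A array was left out (log2 change 1.11). The groups overlapped in both, and the probe sets did not have changes of the same size. In 143BTK− the log2 changes were 0.32 (SE 0.34) for 202804_at and −0.16 (SE 0.35) for 202805_s_at, again with overlap. ABCC5, an exporter of cyclic nucleotides and nucleotide analogs, had log2 changes of 0.03 (SE 0.28) in A549 and 0.02 (SE 0.25) in 143BTK−. Its signals were 48.7 to 89.4 on the ρ° arrays and 56.3 to 74.5 on the ρ+ arrays of A549. In 143BTK− they were 105.2 to 117.6 on the ρ° arrays and 91.8 to 139.6 on the ρ+ arrays.

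**Figure D2:**
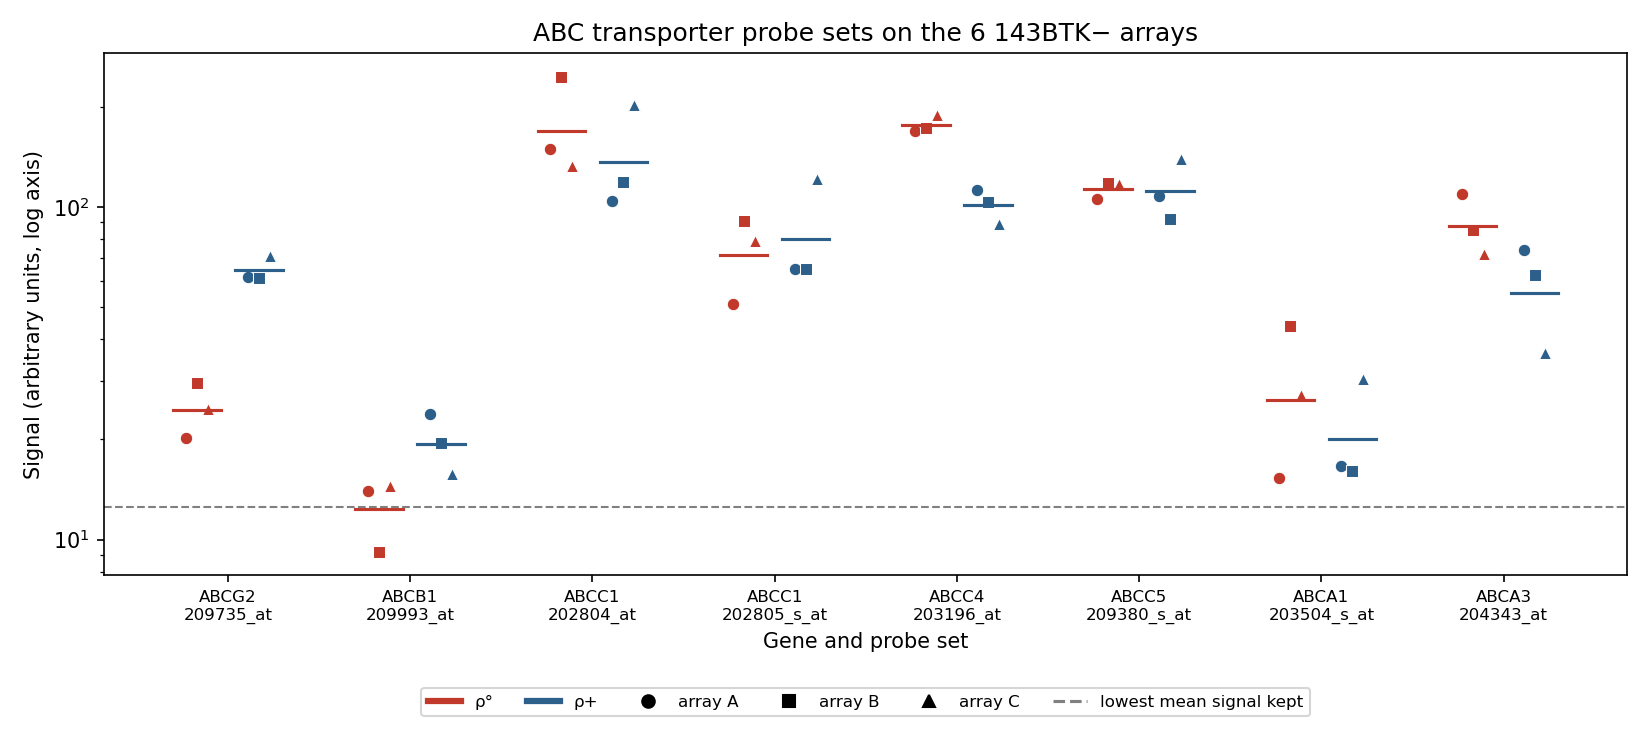
Signals of the 8 member probe sets kept in 143BTK− (vertical axis, log scale, arbitrary units) on the 3 ρ° arrays (red) and the 3 ρ+ arrays (blue), with horizontal bars at the geometric means and the dashed line at the lowest mean signal kept, 12.6. The groups are apart for ABCG2, ABCB1 and ABCC4 and overlap for the other 5 probe sets. The ρ° mean of ABCB1 lies below the dashed line.

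The lipid transporters ABCA1 and ABCA3 had higher mean signals in A549 ρ° cells. ABCA1 probe set 203504_s_at had signals of 101.3, 94.7 and 53.1 on the A549 ρ° arrays, against 24.5, 33.9 and 41.4 on the ρ+ arrays (log2 change 1.30, SE 0.33, 2.46-fold higher). Probe set 203505_at had 78.4, 85.5 and 56.2 on the ρ° arrays, against 18.6, 22.8 and 50.2 on the ρ+ arrays (1.38, SE 0.39, 2.61-fold higher). Neither probe set overlapped between the groups, although array C of each group was the one closest to the other group in both. The remaining ABCA1 probe set, 216066_at, was kept in neither line, with 4.9 to 21.3 on the ρ° arrays and 4 to 17.1 on the ρ+ arrays of A549. In 143BTK− it had 3 to 6.6 on the ρ° arrays and 2.1 to 7.4 on the ρ+ arrays. In 143BTK−, 203504_s_at had 15.3, 43.9 and 27.1 on the ρ° arrays, against 16.6, 16.1 and 30.3 on the ρ+ arrays (0.39, SE 0.47). These groups overlapped, and 203505_at was not kept in 143BTK−, with 13.9 to 22.5 on the ρ° arrays and 6.5 to 18.4 on the ρ+ arrays.

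ABCA3 (204343_at) had signals of 99.7, 136.6 and 66.8 on the A549 ρ° arrays, against 22, 32.6 and 75.3 on the ρ+ arrays. The ρ+ C array was above the lowest ρ° array, so the groups overlapped, and the log2 change was 1.36 (SE 0.44). In 143BTK− the signals were 109.4, 85 and 72.3 on the ρ° arrays and 74.3, 62.2 and 36.4 on the ρ+ arrays (0.67, SE 0.33). The overlap was small, with 1 ρ+ array above 1 ρ° array. The other probe sets on chromosome 16, where ABCA3 and ABCC1 lie, had a median log2 change of −0.33 in A549, and those on chromosome 9, where ABCA1 lies, of −0.31.

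Of the 11 member probe sets kept in A549, 5 were higher in ρ° cells at an adjusted p under 0.05 in limma (ABCC2, both of ABCC3 and 2 of ABCA1), and 1, ABCG2, was lower. Among all probe sets kept in A549, 5.66% were higher and 5.2% lower by the same rule. At an unadjusted p under 0.05 in limma, 8 of the 11 were higher and 1 lower, beside 14% and 13.4% of all. Without overlap between the groups, 6 member probe sets lay higher (these 5 and ABCC4) and 1 lower, where 15.8% and 16.1% of all probe sets did. In 143BTK−, 0 of the 8 member probe sets passed the adjusted threshold in either direction, as did 0% of all probe sets higher and 0% lower. At an unadjusted p under 0.05, ABCC4 was higher and ABCG2 lower, beside 3.79% and 4.6% of all probe sets. Without overlap, 1 member probe set was higher (ABCC4) and 2 lower (ABCG2 and ABCB1), beside 7.37% and 7.47%. The ρ° mean of ABCB1 lay below the limit in 143BTK−, so it was kept there only through its ρ+ arrays. The median log2 change of the member probe sets was 1.30 in A549 and 0.17 in 143BTK− (ABCB1 included), and that of all kept probe sets was −0.00 in each line. ABCC2 and ABCC3 had too little signal in 143BTK− to be compared there.

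Among the alternatives that could change an A549 value, which included leaving out each A549 array in turn, the calls of ABCG2, ABCC2 and ABCC3 probe set 209641_s_at held in 12 of 12. That of the other ABCC3 probe set held in 8 of 12, and was lost without the intensity trend and without the A549 ρ° A, ρ° B or ρ+ B array. Those of ABCA1 held in 4 of 11 for 203504_s_at and in 3 of 11 for 203505_at. With the replicate letter as a block, without a filter or without the intensity trend both were lost. Leaving out array A or B of either A549 group lost both, and leaving out the ρ° C array lost 203505_at. ABCG2 had been chosen by these values, and the other members with these values known. A call that held therefore describes its dependence on the settings and is no support for the change.

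**Figure D3:**
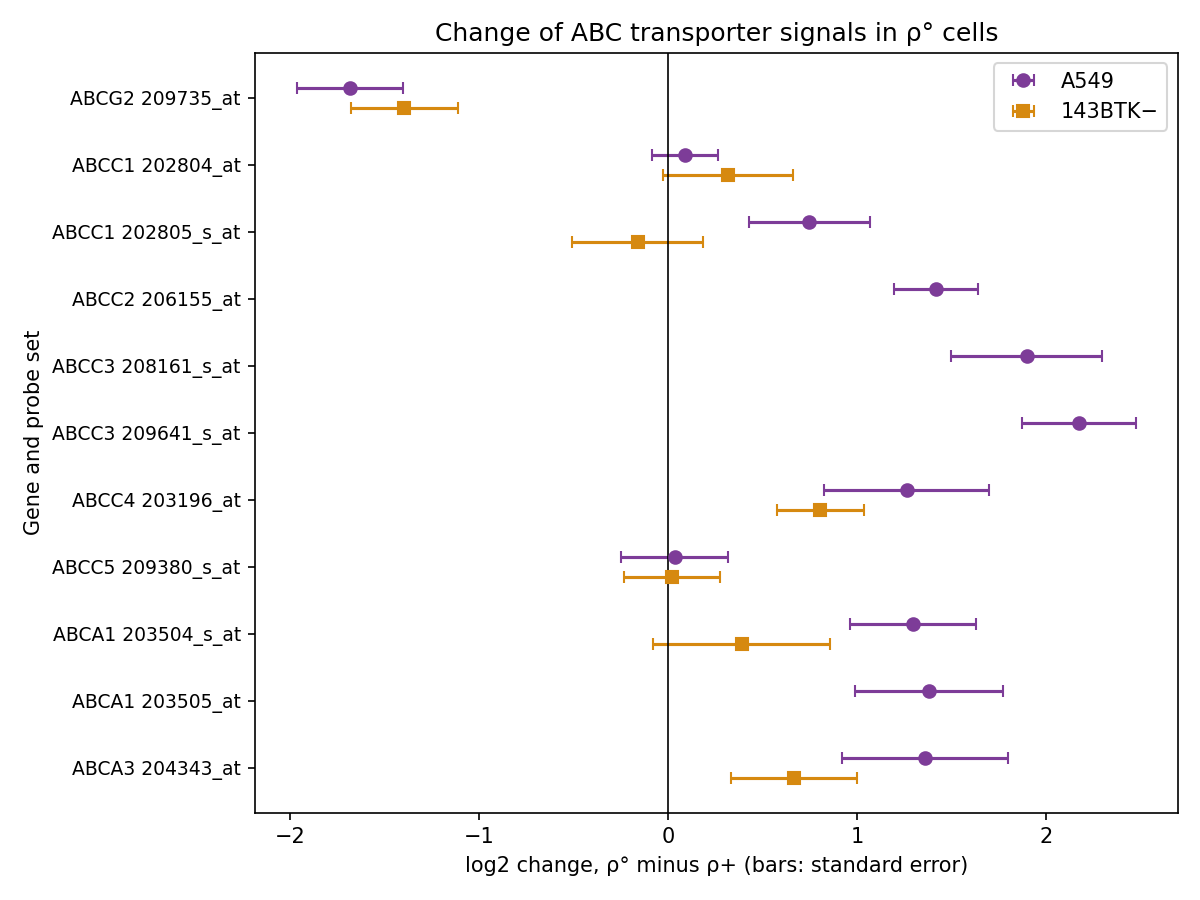
Log2 change of the member probe sets (horizontal axis, ρ° minus ρ+, points with bars of 1 standard error) in A549 (circles) and 143BTK− (squares), with a point where the probe set was kept in the line and both groups averaged above the limit. ABCG2 lies left of 0 in both lines, at −1.68 and −1.40, and ABCC4 lies right of 0 in both, at 1.26 and 0.81.

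In the fit of all 12 arrays, the mean change over both lines could be computed for the 7 member probe sets kept in both. It was −1.54 (SE 0.20) for ABCG2, 1.03 (SE 0.27) for ABCC4, 1.01 (SE 0.30) for ABCA3, 0.84 (SE 0.30) for ABCA1 (203504_s_at), 0.20 (SE 0.20) and 0.29 (SE 0.25) for the ABCC1 probe sets and 0.03 (SE 0.19) for ABCC5. At an adjusted p under 0.05 in limma, 1 was higher (ABCC4) and 1 lower (ABCG2), beside 1.97% and 1.73% of all probe sets kept in both lines. The call of ABCG2, which had been chosen by these same values and so lends no support, held in 18 of 18 alternatives. That of ABCC4 held in 4 of 19 and was lost with the replicate letter as a block, without a filter, without the intensity trend, with all 12 arrays normalized together, and when any array other than the ρ+ C array of A549 was left out.

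The change of a member was not shown to differ between the lines. The difference of the log2 changes, A549 minus 143BTK−, was −0.29 (SE 0.40) for ABCG2, 0.46 (SE 0.54) for ABCC4, 0.69 (SE 0.60) for ABCA3 and 0.91 (SE 0.60) for ABCA1 (203504_s_at). It was −0.23 (SE 0.39) and 0.91 (SE 0.51) for the ABCC1 probe sets and 0.01 (SE 0.38) for ABCC5. In limma's test of this difference 0 of 7 passed, with a lowest adjusted p of 0.387, beside 1.95% of all probe sets. At an unadjusted p under 0.05 it was 0 of 7, beside 17.3% of all. A p above the threshold does not show that a member changed alike in both lines.

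The C array of the A549 ρ+ cells took part in several of these values. For 8 of the 11 kept member probe sets (72.7%) it was the ρ+ array nearest to the ρ° mean, as it was for 37.4% of all kept probe sets. On the other side, the ρ° C array was nearest to the ρ+ mean for 7 of the 11 (63.6%), beside 42.4% of all. Among the 1422 probe sets that passed the adjusted threshold in A549, the shares were 42.1% for the ρ+ C array and 57.7% for the ρ° C array. Without the ρ+ C array, 7 member probe sets were higher and 1 was lower at an adjusted p under 0.05 in limma, beside 14.7% of all probe sets in either direction, and ABCC4 and ABCA3 were the ones added. Their log2 changes were then 1.77 and 1.86. The ABCG2 change was −1.68 with and without it, and ABCC2 had 1.21 without it. What sets this array apart was not tested.

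The other ABC genes were described from a list of 39, of which 28 had a probe set with their name alone. In A549, 17 of them (25 probe sets) were kept, and 0 were higher and 1 was lower at an adjusted p under 0.05 in limma (3 and 3 probe sets at an unadjusted p under 0.05, beside 14% higher and 13.4% lower of all probe sets kept in A549). The gene was ABCF2, a member without membrane spans that is thought to act in translation. Its probe set 209247_s_at had signals of 195.5, 143.4 and 186.2 on the A549 ρ° arrays, against 311.1, 288.3 and 327.9 on the ρ+ arrays. The groups did not overlap (log2 change −0.83, SE 0.20, limma adjusted p = 0.0269, and 0.0145 to 0.0999 over the other settings). Leaving out array A or B of either A549 group lost the call, as did leaving out the intensity trend. The other kept ABCF2 probe sets had log2 changes of −0.73, −0.60 and −0.33. The median log2 change of the 25 probe sets was −0.06. In 143BTK−, 15 of these genes (22 probe sets) were kept, with 0 passing the adjusted threshold and a median of −0.02. At an unadjusted p under 0.05, 0 of these 22 probe sets were higher and 2 lower, beside 3.79% and 4.6% of all. Of the 14 genes (20 probe sets) kept in both lines, 0 passed in the mean change or in the difference between the lines. At an unadjusted p under 0.05 in limma, 2 probe sets were higher and 1 lower in the mean change, beside 10.5% and 10.1% of all. In the difference, A549 minus 143BTK−, 3 of the 20 were above 0 and 0 below by this rule, beside 17.3% of all in either direction.

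Regulators that are known to act on ABC genes, such as nuclear receptors and stress-response factors, were listed as 33 genes, 26 of them on the array. Of the 22 (34 probe sets) kept in A549, 0 were higher and 1 was lower, and of the 23 kept in 143BTK− 0 passed the adjusted threshold of limma. At an unadjusted p under 0.05, 6 of the 34 probe sets were higher and 2 lower in A549, where the shares of all probe sets were 14% and 13.4%. In 143BTK− 2 of 37 were higher and 0 lower, beside 3.79% and 4.6% of all. The gene was EPAS1, the hypoxia-inducible factor HIF-2 alpha. Its probe set 200878_at had 682.4, 899.4 and 657 on the A549 ρ° arrays, against 1095.1, 1889.5 and 1389.8 on the ρ+ arrays. The groups were apart (log2 change −0.94, SE 0.22, limma adjusted p = 0.023, and 0.0111 to 0.102 over the other settings). The call was lost without the intensity trend and without the A549 ρ° A, ρ° C or ρ+ B array. The other EPAS1 probe set, 200879_s_at, had a log2 change of 0.04 (SE 0.53). In 143BTK− 200878_at averaged 399 ± 167 on the ρ° arrays and 183 ± 162 on the ρ+ arrays (SD, n = 3 each). These overlapped, with a log2 change of 1.39 (SE 0.57), and limma's test of the difference between the lines gave an adjusted p of 0.085, with 2 of 19 alternatives under the threshold.

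Carriers that bring drugs and organic ions into cells were listed as 30 genes, with 16 (19 probe sets) kept in A549 and 14 (18 probe sets) in 143BTK−. In A549, 1 was higher and 1 lower at an adjusted p under 0.05 in limma, beside 5.66% and 5.2% of all probe sets. At an unadjusted p under 0.05, 4 of the 19 probe sets were higher and 3 lower, beside 14% and 13.4% of all. SLCO4A1, a carrier of thyroid hormone and other organic anions, had signals of 148.4, 164.8 and 228.1 on the A549 ρ° arrays, against 43.2, 45.6 and 97.3 on the ρ+ arrays (219911_s_at). The groups did not overlap (log2 change 1.62, SE 0.33, 3.08-fold higher, limma adjusted p = 0.0143, and 0.0012 to 0.0639 over the other settings), and the call was lost without the ρ+ B array. In 143BTK− the same probe set had 153.3, 125.1 and 198.9 on the ρ° arrays and 394, 218.7 and 458.1 on the ρ+ arrays, the opposite order (−1.12, SE 0.32). SLC22A5, the carnitine carrier, had 84.1, 65.7 and 88.3 on the A549 ρ° arrays, against 133.2, 156.3 and 129.7 on the ρ+ arrays (205074_at). These did not overlap (−0.82, SE 0.22, limma adjusted p = 0.0421, and 0.038 to 0.161 over the other settings), and the call held in 4 of 12 alternatives. It was lost when any A549 array other than ρ+ C was left out, without a filter, without the intensity trend and with the replicate letter as a block. In 143BTK− 0 carriers passed limma's adjusted threshold. At an unadjusted p under 0.05, 0 of the 18 probe sets were higher and 2 lower, beside 3.79% and 4.6% of all.

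Markers of the lines were described beside the members. Of 7 epithelial marker genes, 5 (6 probe sets) were kept in A549. At an adjusted p under 0.05 in limma, 4 of these (KRT8, KRT18, KRT19 and CDH1, 1 probe set each) were lower in ρ° cells and 0 higher. Among all probe sets kept in A549, 5.2% were lower and 5.66% higher by this rule. KRT18, a keratin of simple epithelia, had a log2 change of −1.36 (SE 0.23) and its partner KRT8 of −1.15 (SE 0.27). KRT19 had signals of 2.1 to 5.5 on the ρ° arrays, below the limit, and of 373.3 to 471.4 on the ρ+ arrays. CDH1, the adhesion molecule E-cadherin, had a log2 change of −1.13 (SE 0.29), and its call held in 4 of 12 alternatives. It was lost when any A549 array other than ρ+ A was left out, without a filter, without the intensity trend and with the replicate letter as a block. The call of KRT8 in A549 was lost without the intensity trend and without array A or B of either group. The summed signal of the epithelial probe sets was 4133 to 7484 on the ρ° arrays and 11343 to 14025 on the ρ+ arrays of A549. Of the mesenchymal markers 0 of 5 kept genes passed. At an unadjusted p under 0.05 in limma, 1 of 6 probe sets (VIM) was higher and 0 lower, beside 14% and 13.4% of all probe sets kept in A549. The sums were 4400.2 to 5006 on the ρ° arrays and 2765 to 5022 on the ρ+ arrays, most of it VIM. Among probe sets not kept, CDH2 (203440_at) had 2.4 to 7.1 on the ρ° arrays, against 31.3 to 51.2 on the ρ+ arrays. SPARC (200665_s_at, 0.9 to 6.5 against 24.2 to 34.5) and COL1A1 probe set 202310_s_at (5.4 to 16.3 against 23.7 to 25.8) were also lower. COL1A1 202311_s_at, not kept either, had 1.6 to 6.9 against 1.5 to 5.1. The kept COL1A1 probe sets overlapped between the groups, with log2 changes of −0.31 (SE 0.37, 202312_s_at) and 0.12 (SE 0.29, 217430_x_at). RUNX2 (221283_at) was higher in ρ° cells, with 9.7 to 24.4 against 4.6 to 6.6, and its other probe sets overlapped. In the mean change over both lines KRT18 (−0.89, limma adjusted p = 0.0168, and 0.00521 to 0.0546 over the other settings) and KRT8 (−0.92, adjusted p = 0.049, and 0.0313 to 0.135) were also lower. These were 2 of 3 epithelial probe sets kept in both lines, beside 1.73% of all. In 143BTK− alone 0 markers passed in either list. At an unadjusted p under 0.05 in limma, 0 of 4 epithelial and 2 of 8 mesenchymal probe sets were called there, both higher. The shares of all probe sets were 3.79% higher and 4.6% lower. The epithelial sums there were 2987 to 5034 on the ρ° arrays and 4213 to 5168 on the ρ+ arrays, nearly all of it KRT18, and the mesenchymal sums were 7779 to 8889 on the ρ° arrays and 6723 to 8124 on the ρ+ arrays. Blood cell markers stayed low, with sums of 43.6 to 98 on the ρ° arrays and 72.7 to 99 on the ρ+ arrays of A549, and of 14.9 to 34.5 on the ρ° arrays and 13.2 to 32.9 on the ρ+ arrays of 143BTK−. Of these, CD14 was kept in A549 and did not pass (log2 change −0.66), and 0 were kept in 143BTK−. No marker was listed at 0. The part of the epithelial markers in the member changes was not tested.

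Across the 12 arrays, with each line centred on its mean, the genes most like ABCG2 among 10779 probe sets were NRCAM, a neuronal cell adhesion molecule (Pearson's r 0.96), DCP1A, an mRNA decapping factor (0.94), PEF1, a calcium-binding protein (0.93), PTPRO, a receptor tyrosine phosphatase (0.92), and CTBP2, a transcriptional corepressor (0.92). The arrays and the split between ρ° and ρ+ are common to all of these points, so the values are a description. NRCAM (204105_s_at) had 62, 98.9 and 88.7 on the A549 ρ° arrays, against 343.1, 375.8 and 407.9 on the ρ+ arrays. In 143BTK− it had 8, 16.3 and 13.9 on the ρ° arrays and 65, 42.2 and 60.4 on the ρ+ arrays. The geometric mean of these ρ° signals lay just below the limit of 12.6. NRCAM was low on the same arrays as ABCG2, which follows from its choice by r. PTPRO (211600_at) had low ρ° signals, 8.9 to 10.8 in A549, under the limit of 19.1, and 3.2 to 13.7 in 143BTK−. The r of PTPRO and that of NRCAM therefore rest partly on signals too low for a fold. With the mean of each group taken off, the r was 0.60 for NRCAM, 0.69 for DCP1A, 0.67 for PEF1, 0.12 for PTPRO and 0.70 for CTBP2. Among the members, the r to ABCG2 was −0.76 for ABCA3, −0.72 for ABCC4, −0.63 for ABCA1 (203504_s_at), −0.26 and −0.30 for the ABCC1 probe sets and 0.10 for ABCC5. With the group means taken off it lay between −0.39 (ABCA3) and 0.48 (ABCC5).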

How the data were processed

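RNA from A549 and 143BTK− cells, ρ° and ρ+, was hybridised to 12 Affymetrix arrays, labelled as replicates A, B and C of each group. The study calls them independent biological replicates and describes them as separate RNA extractions. It describes no repeat of the mtDNA depletion within a line, so the SE and the p-values do not cover a spread between separate depletions. The deposited intensity values are linear signals: the authors computed them with Microarray Suite (MAS) 5 and then applied quantile normalization to A549 and 143BTK− separately. They were used as log2 signals with an offset of 0, and 0 other columns of per-sample values were present. Detection calls were not used; instead, the top 13096 (A549) and 14012 (143BTK−) by mean log2 signal were retained, the numbers left in the study. Testing used limma 3.58.1 under R 4.3.3 (intensity trend, two-sided, Benjamini-Hochberg over all kept probe sets, threshold 0.05), where the study used an error model fitted on other arrays. Scripts were tested on simulated data. Of the probe sets, 19071 had 1 listed gene, 1043 several and 2169 none, and 19059 matched RefSeq (GRCh38.p14) for symbols. Plots were made in Python 3.11.15 (matplotlib 3.10.9). The members and the gene lists were chosen with earlier results of these data known. Named were all member probe sets, list genes that passed in any comparison, and the 5 genes most correlated with ABCG2. CD14, VIM, CDH2, SPARC, COL1A1, RUNX2 and the other probe sets of ABCF2 and EPAS1 were named outside this rule after their values were seen. The number of arrays limits the precision. Alternatives were quantile normalization over 12 arrays, 16 added before log2, no filter, only mean signals from 100 upwards, a fit lacking the intensity trend, a block on the replicate letter, each array left out, and both ρ+ C arrays left out.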

Additional observations from a re-analysis of the deposited data

Results flagged for a closer look

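SLCO4A1 (219911_s_at), a carrier of organic anions on the list of uptake carriers, changed differently in the lines. Its log2 change was 1.62 (SE 0.33) in A549 and −1.12 (SE 0.32) in 143BTK−, with the ρ° arrays above all ρ+ arrays in A549 and below all of them in 143BTK−. The difference of the changes, A549 minus 143BTK−, was 2.74 (limma, adjusted p = 0.0149), and it passed in 19 of 19 alternatives with an adjusted p of 0.00524 to 0.0495 over the alternatives.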

How the results depend on the processing

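The number of probe sets at an adjusted p under 0.05 from limma was 1422 in A549, 0 in 143BTK− (1175 at an unadjusted p under 0.05), 449 in the mean change and 237 in the difference between the lines. Without the intensity trend it was 770, 0, 233 and 130. With 1 array left out in turn it ranged over 425 to 1921 in A549, 110 to 548 in the mean change and 61 to 311 in the difference, and was 0 in 143BTK−, where leaving out 1 array leaves a group with 2. With the replicate letter as a block (replicate block) the counts were 1442, 1, 345 and 187. Same-letter arrays of the ρ° and ρ+ cells had deviations that correlated at 0.107, 0.0543 and 0.0861 in A549 and at 0.359, −0.106 and −0.0155 in 143BTK−, so the letters were not taken to pair them. In A549 every array correlated best with its own letter, a hint from the data and not from the design. Counting the alternatives that could change an A549 value, 106 of 128 member values stayed on their side of the threshold, 19 lost the call and 3 gained it. In the mean change 111 of 128 stayed, 15 lost the call and 2 gained it. In 143BTK−, where at most 1 probe set of the whole array was called, and in the difference between the lines 0 member values passed under any alternative, which says nothing of their stability. None of these member values turned the direction of a called change. Genes below the lowest mean signal kept have signals too low for a fold.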
